A study of Mus musculus with 14 samples.

Results

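The genes described here are the 10 that encode the TGF-beta ligands (Tgfb1, Tgfb2, Tgfb3), their receptors (Tgfbr1, Tgfbr2, Tgfbr3) and the latent TGF-beta binding proteins (Ltbp1, Ltbp2, Ltbp3, Ltbp4). They were taken by symbol through GENCODE vM21 from the 54524 Ensembl genes in the table of counts, and all 10 were among the 26626 genes that passed the filter on low counts. RNA was sequenced from liver sinusoidal endothelial cells (LSECs), the fenestrated endothelium that lines the liver capillaries, sorted from male Balb/c mice. Healthy mice (4) received no injection at all, not even the mineral oil vehicle, and the others were studied 1 day (2 mice), 3 days (4 mice) or 7 days (4 mice) after 1 intraperitoneal injection of carbon tetrachloride (CCl4), a solvent that injures hepatocytes, at 0.5 µl per g of body weight in mineral oil. The labels give an age of 10 to 12 weeks for both kinds of mice, and the sort kept cells with CD32 on their surface that lacked F4/80, autofluorescence in the UV channel and propidium iodide uptake. The study's methods add CD45, the marker of leukocytes, to what the sorted cells lacked, and the labels do not list it. The effect of CCl4 and that of the oil injection cannot be told apart in these groups. The study describes a temporary loss of CD32b staining in liver early after CCl4, restored later. Whether the CD32 gate kept the same kinds of cells at day 1 and day 3 as in healthy mice was not tested. This limit applies to every difference from healthy LSECs at these days. At day 1, the study left out 2 further samples for low RIN values, a measure of RNA quality.

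TGF-beta is made as a precursor whose propeptide, the latency associated peptide, stays wrapped around the mature dimer and keeps it from its receptors. Latent TGF-beta binding proteins other than that of Ltbp2 tether this small latent complex to fibrillin and fibronectin in the matrix. From there, integrins, thrombospondin 1 or proteases can release the ligand. The Ltbp genes are called latency proteins here by family, Ltbp2 included, although its protein does not bind latent TGF-beta. Free ligand binds TGFBR2, which phosphorylates TGFBR1, and SMAD2 and SMAD3 then carry the signal to the nucleus, while TGFBR3 (betaglycan) presents ligand, in particular TGF-beta 2. In injured liver, TGF-beta is best known for its action on hepatic stellate cells, which become matrix-producing myofibroblasts.

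Each sample had between 46401496 and 103912264 reads counted on genes, so counting error was small for all members except Ltbp2, Ltbp1 and Tgfb2. The 12 LSEC markers summed to 18400 to 21920 CPM (counts scaled to the library total, TMM-normalised) in healthy samples and to 10970 to 16450 CPM over the 10 CCl4 samples, and none of the 12 was undetected throughout a group. Markers of other liver cells were not absent. The 14 stellate cell and fibroblast markers summed to 96.7 to 150 CPM in healthy samples and to 229 and 315 CPM at day 1, gave 383 to 885 CPM by day 3 and covered 215 to 1704 CPM by day 7. The 11 monocyte and neutrophil markers summed to 44.5 to 241 CPM in healthy samples and to 7018 and 3054 at day 1, and at day 3 they gave 4935, 2741, 176 and 129 CPM in samples 1 to 4. Healthy sample 4 had 7935 CPM of the 10 hepatocyte markers where the healthy median was 299, and day 3 sample 4 had counts on the fewest genes, 22986, against up to 34768 in the other day 3 samples. The 9 Kupffer cell and macrophage markers summed to 279 to 1797 CPM in healthy samples and to 776 to 2118 CPM over the 10 CCl4 samples. No marker list shared a gene with the 10 members or with the pathway lists used below. In bulk RNA, fewer cells of a type and less RNA per cell cannot be told apart.

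The latency proteins are the members the results turn on, and the sequence just upstream of each of these 4 genes is therefore shown. Windows from 250 bases before to 50 bases after the RefSeq start on GRCm38.p6 were found for 8 of the 10 members. Of the 250 bases before that start, the part that lies outside the GENCODE gene is printed, read 5′ to 3′ on the strand of the gene. Capitals mark matches on either strand to any of 4 words, and a match that runs past the end of a printed stretch is not marked. The SMAD box was searched as CAGAC and the AP-1 site as TGANTCA. For GC-rich promoters the GC box was searched as GGGCGG, and the TATA box was searched as TATAAA; no match to the AP-1 site or TATA box lies in the stretches shown.
Ltbp2 (chr12:84876533-84876741, minus strand): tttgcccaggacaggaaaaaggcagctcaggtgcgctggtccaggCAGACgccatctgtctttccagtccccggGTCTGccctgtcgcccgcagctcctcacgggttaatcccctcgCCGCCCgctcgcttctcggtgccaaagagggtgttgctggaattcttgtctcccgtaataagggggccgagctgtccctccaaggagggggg
Ltbp1 (chr17:75005279-75005528, plus strand): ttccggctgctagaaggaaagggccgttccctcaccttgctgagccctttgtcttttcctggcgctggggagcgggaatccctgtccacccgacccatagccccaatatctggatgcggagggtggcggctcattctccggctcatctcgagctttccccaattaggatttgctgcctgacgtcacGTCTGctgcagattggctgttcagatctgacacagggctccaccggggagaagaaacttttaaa
Ltbp3 (chr19:5740650-5740899, plus strand): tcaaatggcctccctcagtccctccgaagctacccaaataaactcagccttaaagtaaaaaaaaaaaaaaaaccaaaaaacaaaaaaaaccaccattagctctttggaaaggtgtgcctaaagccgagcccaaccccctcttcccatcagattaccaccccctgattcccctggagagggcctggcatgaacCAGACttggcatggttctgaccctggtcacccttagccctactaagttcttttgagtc
Ltbp4 (chr7:27337693-27337862, minus strand): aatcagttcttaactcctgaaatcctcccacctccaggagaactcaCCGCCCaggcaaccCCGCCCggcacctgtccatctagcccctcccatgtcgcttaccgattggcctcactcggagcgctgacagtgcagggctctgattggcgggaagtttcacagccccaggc
Over all 32851 RefSeq windows of 300 bases, 49.6% held CAGAC, 35.7% GGGCGG, 13.6% TATAAA and 7.81% TGANTCA. The stretch upstream of Ltbp2 held 2 matches of CAGAC and 1 of GGGCGG, those of Ltbp1 and Ltbp3 1 match of CAGAC each, and that of Ltbp4 2 matches of GGGCGG. The rest of each window is not printed, and with it the whole windows of 300 bases held 3 matches of CAGAC and 2 of GGGCGG for Ltbp2, 1 of CAGAC for Ltbp1, 2 of CAGAC and 1 of TGANTCA for Ltbp3, and 3 of GGGCGG for Ltbp4. RefSeq lists a second start for Ltbp1, with 2 matches of CAGAC, and further starts for Ltbp4, with 7 and 9 of GGGCGG. Such matches are short words that many promoters hold, and they describe the letters only.

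In healthy LSECs the members spanned more than 3 orders of magnitude per length of exon, expressed as RPKM, the CPM divided by the kilobases of exon. Ltbp4 was at 106.9 ± 12.2 RPKM (SD, n = 4) and lay above every other member in all 4 mice. Tgfbr2 followed with 28.7 ± 3.63, then Tgfbr3 with 20.5 ± 1.12 and Tgfb1 with 20.2 ± 3.98, and the samples of these last 2 genes overlapped. Tgfbr1 stood at 3.92 ± 0.567 RPKM, Ltbp3 at 0.716 ± 0.192 and Tgfb3 at 0.442 ± 0.0416. Tgfb2, at 0.195 ± 0.0616, overlapped with Ltbp1, at 0.114 ± 0.0376, and Ltbp2 was last with 0.0235 ± 0.011. In healthy samples 1 ligand and 1 latency protein thus held most of the RPKM of their kind. Tgfb1 made up 95.7% to 97.3% of the RPKM of the ligands and Ltbp4 99.1% to 99.3% of that of the latency proteins. Of the receptors, Tgfbr1 lay below Tgfbr2 and Tgfbr3 in all 4 mice. Healthy sample 1, the lowest of its group in Tgfb1, had 279 CPM of Kupffer cell and macrophage markers where the other healthy samples had 1247 to 1797 CPM. The part of such cells in the level of Tgfb1 was not tested.

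The lower part of this order changed after CCl4. At day 3 and at day 7, Ltbp2 was in eighth place, with 0.843 ± 0.759 and 1.54 ± 1.71 RPKM (SD, n = 4), and its samples overlapped with those of Tgfb3 above it and Tgfb2 below it. The share of Ltbp4 among the latency proteins ran from 93.5% to 96.2% at day 3 and from 83.8% to 97.2% at day 7, below every healthy sample. The share of Tgfb1 among the ligands was 84.1% to 94.4% at day 3 and 82.3% to 95.3% at day 7, again below every healthy sample. At day 1, Tgfbr3 (25.4 RPKM in both mice) stood above Tgfbr2 (19.5 and 20.5), the reverse of the healthy order.

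**Figure D1:**
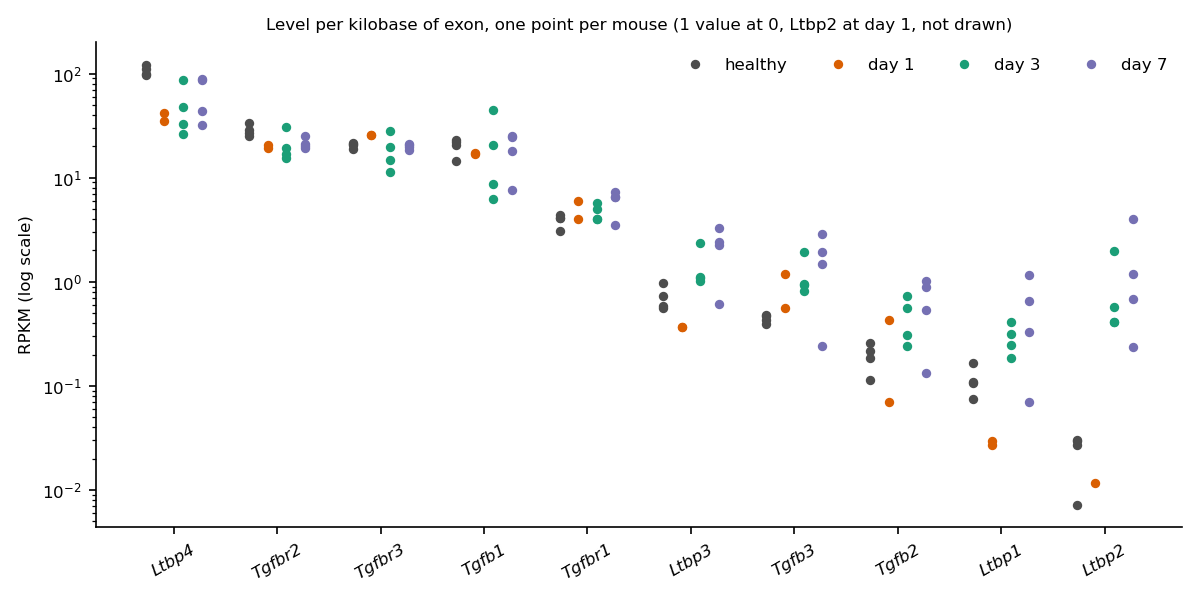
RPKM of the 10 members on a log axis, 1 point per mouse, coloured by group and ordered by the healthy mean. Ltbp4 lies at the top with 95.8 to 122.1 RPKM in healthy mice, and Ltbp2, at the bottom with 0.00718 to 0.0305, reaches 0.236 to 4.04 at day 7. The day 1 sample at 0 for Ltbp2 is not drawn.

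Each day was compared with healthy LSECs to ask how the pathway's own components respond to acute injury. In edgeR's quasi-likelihood test with Benjamini-Hochberg adjustment over 26626 genes, none of the 10 members passed an adjusted p of 0.05 at day 1 (2 had an unadjusted p under 0.05), where 4.06% of all genes were called. At day 3, Ltbp2 alone was called, 1 of 10, beside 7.19% of all genes, and at day 7 again Ltbp2 alone, beside 3.18%. The unadjusted p of edgeR was under 0.05 for 6 of the 10 at day 3 and for 6 at day 7. Of all 26626 genes, 4759 had such a value at day 1, 5906 at day 3 and 5609 at day 7. The median log2 fold change of the 10 members was -0.38 at day 1, 0.61 at day 3 and 1.10 at day 7, beside -0.03, 0.18 and 0.01 over all genes tested. All 3 comparisons share the same 4 healthy mice.

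**Figure D2:**
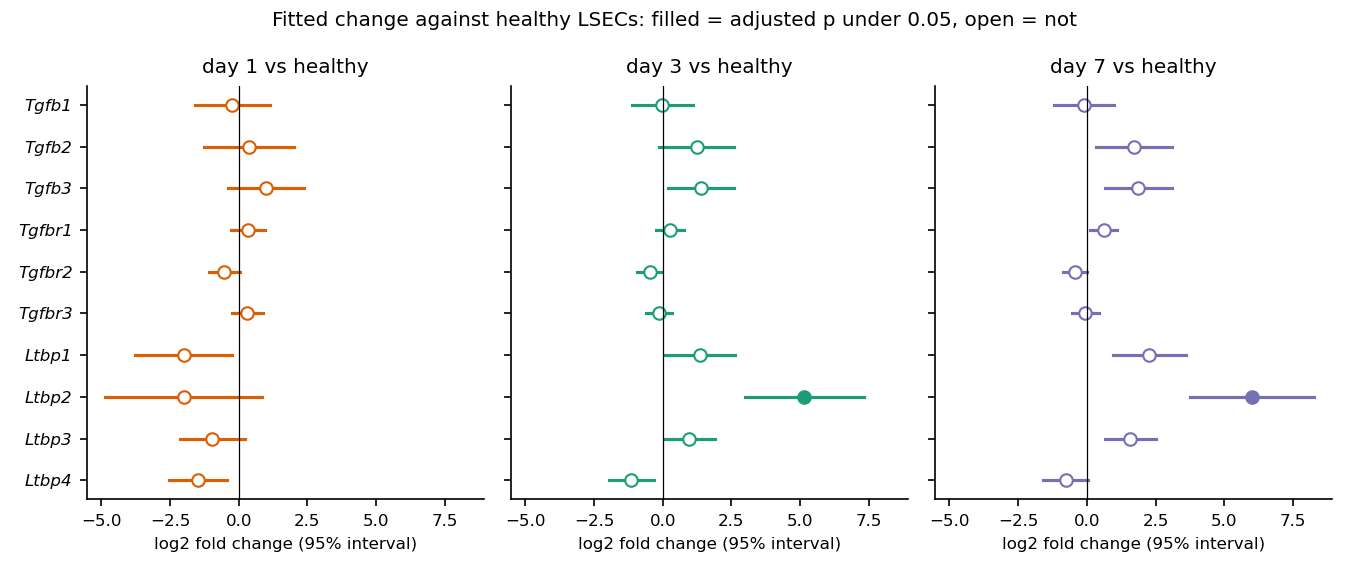
Fitted log2 fold change against healthy LSECs with its 95% interval for each member at day 1, day 3 and day 7, filled where the adjusted p was under 0.05. Only Ltbp2 at day 3 (5.15) and at day 7 (6.02) is filled, and the interval of Ltbp4 lies below 0 at day 1 and at day 3.

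Among the ligands, Tgfb1, the isoform of most liver cells and of platelets, showed no shared direction. The gene (ENSMUSG00000002603) lies on chromosome 7 from 25687002 to 25705077 on the plus strand, all positions here being those of GENCODE vM21 on GRCm38. It was at 72.6, 112, 117.3 and 105 CPM in the healthy samples 1 to 4 and at 87.7 and 85.8 CPM at day 1. At day 3 it was at 31.6, 43.4, 103 and 224.6 CPM, and at day 7 at 38.8, 90.4, 123.5 and 126.4 CPM. Day 3 thus held both the lowest and the highest of all 14 values, and its coefficient of variation was 87.8% against 19.7% in healthy LSECs. The log2 fold change at day 3 was -0.01 with a 95% interval from -1.12 to 1.09 (adjusted p = 0.991, edgeR), so neither a halving nor a doubling lay outside the interval. Without day 3 sample 4 the value was -0.84 and did not pass, and limma voom with sample weights gave -1.25 and called it (adjusted p = 0.0162). The 2 low day 3 samples were those with 4935 and 2741 CPM of monocyte and neutrophil markers, and the part of these cells, which the CD45 and F4/80 gates of the sort are meant to remove, was not tested.

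Tgfb3 (ENSMUSG00000021253, chromosome 12, 86056745 to 86079041, minus strand), a minor isoform in these cells, was at 1.32, 1.45, 1.61 and 1.60 CPM in healthy LSECs and at 4.04 and 1.92 CPM at day 1. It was at 3.21, 2.74, 3.16 and 6.52 CPM at day 3 and at 0.821, 9.66, 5.01 and 6.54 CPM at day 7. All samples at day 1 and day 3 lay above all healthy ones, and at day 7 sample 1 lay below them. In day 7 samples 1 to 4, stellate cell and fibroblast markers summed to 215, 1704, 573 and 990 CPM, the same order of mice as for Tgfb3. The order did not hold at day 3, and the part of such cells in the level of Tgfb3 was not tested. Fitted log2 fold changes were 1.39 ± 0.553 (SE) at day 3 and 1.88 ± 0.56 at day 7, and neither passed in edgeR (adjusted p = 0.156 and 0.082). Without day 7 sample 1, the day 7 value was 2.24 and passed (adjusted p = 0.00875), as it did without day 3 sample 4 (adjusted p = 0.0493). On all samples, DESeq2 and limma voom called Tgfb3 higher at day 7 (1.92 and 1.82, adjusted p = 0.00947 and 0.014). Of the exon bases of Tgfb3, 12.4% are shared with genes on the other strand, which the library kit cannot separate.

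Tgfb2 (ENSMUSG00000039239, chromosome 1, 186622792 to 186705989, minus strand), the isoform that depends most on betaglycan, was at 1.51, 1.07, 1.27 and 0.664 CPM in healthy LSECs and at 2.51 and 0.407 CPM at day 1, where the 2 mice lay on either side of the healthy range. At day 3 it was at 1.40, 3.27, 1.79 and 4.20 CPM, and at day 7 at 0.780, 5.85, 3.13 and 5.17 CPM. Both later groups overlapped with healthy LSECs through 1 low sample each. The order of the mice at day 7 was again that of the stellate cell and fibroblast marker sums, 215, 1704, 573 and 990 CPM in samples 1 to 4. At day 3 the orders differed, and the part of such cells in the level of Tgfb2 was not tested. In the fit, log2 fold changes were 1.24 ± 0.634 (SE) at day 3 (adjusted p = 0.274, edgeR) and 1.72 ± 0.642 at day 7 (adjusted p = 0.149). DESeq2 and limma voom called Tgfb2 higher at day 7 (1.77 and 1.74, adjusted p = 0.0448 and 0.0324).

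**Figure D3:**
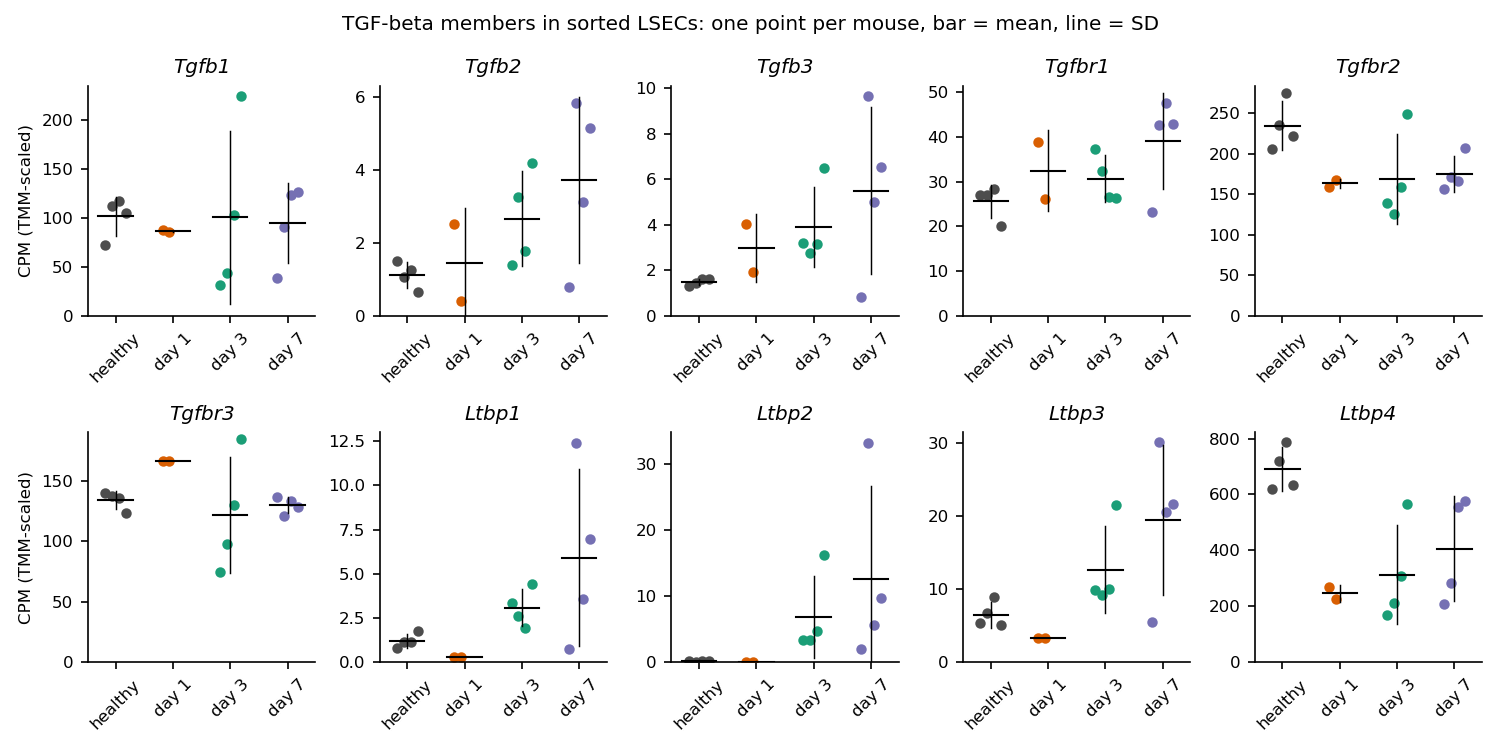
TMM-scaled CPM of each member, 1 point per mouse and 1 panel per gene with an axis from 0; the horizontal bar is the group mean and the vertical line 1 SD on either side, ended at 0. Ltbp2 and Ltbp4 are the members whose samples do not overlap with healthy ones at both day 3 and day 7, and day 7 sample 1 lies lowest of its group in all panels except Tgfbr3.

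No receptor passed in edgeR against healthy LSECs. Tgfbr2 (ENSMUSG00000032440, chromosome 9, 116084293 to 116175360, minus strand), the receptor that binds ligand first, was at 206.4, 236, 276 and 221 CPM in healthy LSECs, at 160 and 168 CPM at day 1, at 140, 126, 160 and 249 CPM at day 3 and at 156, 171, 167 and 208 CPM at day 7. All CCl4 samples except day 3 sample 4 and day 7 sample 4 lay below the healthy range. The log2 fold change was -0.52 at day 1 (95% interval -1.07 to 0.03), -0.48 at day 3 (-0.92 to -0.04) and -0.42 at day 7 (-0.86 to 0.02), with edgeR's adjusted p at 0.314, 0.187 and 0.257. A fall to under 50% of the healthy level lay outside the intervals at day 3 and day 7. Without day 3 sample 4, the value at day 3 was -0.81 and passed (adjusted p = 0.0104). With limma voom, Tgfbr2 was called lower at day 1 (-0.56, adjusted p = 0.0149), day 3 (-0.82, adjusted p = 0.00155) and day 7 (-0.41, adjusted p = 0.0253).

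Tgfbr1 (ENSMUSG00000007613, chromosome 4, 47353222 to 47414931, plus strand), the kinase that phosphorylates SMAD2 and SMAD3, was at 20.1 to 28.3 CPM in healthy LSECs, at 38.9 and 26.0 CPM at day 1 and at 26.4 to 37.2 CPM at day 3. At day 7 it was at 23.2, 42.6, 47.6 and 42.8 CPM, with 3 of 4 samples above the healthy range. The log2 fold change at day 7 was 0.61 ± 0.234 (SE), which did not pass in edgeR (adjusted p = 0.16), and without day 7 sample 1 it was 0.79 and passed (adjusted p = 0.0279). With limma voom it was 0.64 and was called (adjusted p = 0.0186). Tgfbr3 (ENSMUSG00000029287, chromosome 5, 107106570 to 107289629, minus strand), the betaglycan gene, gave 123.6 to 140.2 CPM in healthy LSECs, 167 CPM in both mice at day 1, 121 to 136 CPM at day 7 and 74.5, 97.7, 130 and 184 CPM at day 3. Its log2 fold changes against healthy LSECs lay between -0.14 and 0.31 in edgeR and none passed, while limma voom gave -0.54 at day 3 and called it (adjusted p = 0.0106), and also called day 3 lower than day 1 (-0.84, adjusted p = 0.00453) and day 7 higher than day 3 (0.47, adjusted p = 0.0314). The interval at day 7 ran from -0.52 to 0.43.

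The latency proteins held the clearest differences, and they went in opposite directions. Ltbp2 (ENSMUSG00000002020, chromosome 12, 84783212 to 84876532, minus strand), a matrix protein of elastic fibres that, unlike the other LTBPs, does not bind latent TGF-beta, was close to the detection limit in healthy LSECs, with 22, 5, 24 and 21 counts or 0.22, 0.0587, 0.25 and 0.24 CPM. At day 1 the 2 mice gave 8 and 0 counts, below 3 counts being taken as not detected. At day 3 it was at 3.35, 3.39, 4.70 and 16.2 CPM (199 to 1524 counts), and at day 7 at 1.93, 33.1, 5.60 and 9.73 CPM (186 to 2366 counts). Every sample of day 3 and day 7 lay above every healthy and every day 1 sample, and for day 3 such a separation above healthy was found in 7.53% of all genes. In either direction, samples did not overlap in 20.8% of all genes for day 7 against healthy and in 21.8% for day 3 against day 1. The share for day 7 against day 1 was not computed.

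In edgeR, Ltbp2 rose by 5.15 ± 1.01 (SE) on the log2 scale at day 3, which is 35.6-fold (adjusted p = 0.00919), and by 6.02 ± 1.05 at day 7, 64.9-fold (adjusted p = 0.0107). The 95% intervals were wide, from 2.99 to 7.32 and from 3.77 to 8.27. Both calls held in 8 of 8 alternative analyses that could test the gene and without each of the 14 samples in turn, with adjusted p of at most 0.0344 and 0.0449. At day 1 the fitted level was 4.01-fold below healthy with an interval of the log2 fold change from -4.86 to 0.85 (adjusted p = 0.49). Day 3 exceeded day 1 by 7.16 ± 1.57 (adjusted p = 0.0299, 2.54% of all genes called), a call that held in 5 of 8 alternatives and was lost without either day 1 sample (adjusted p = 0.171 without sample 1 and 0.277 without sample 2). Day 7 and day 3 differed by 0.87 with an interval from -0.93 to 2.66, so a further change of several-fold could not be seen at this spread.

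The rise of Ltbp2 ran beside that of stellate cell and fibroblast markers, of which 10 of 14 were called higher at day 3 and 11 of 14 at day 7. At day 7, the mouse with the most Ltbp2 (sample 2, 33.1 CPM) also had the highest sum of these markers, 1704 CPM, and the mouse with the least (sample 1, 1.93 CPM) the lowest, 215 CPM. The order did not hold at day 3, where sample 4 had by far the most Ltbp2 with a marker sum of 661 CPM, below samples 1 and 2 (885 and 839 CPM). At day 1 the sum was above the healthy samples through Hgf, which made up 73.1% of it, while Ltbp2 was not. The part of these cells in the result was not tested. The 3 protein-coding genes whose log2 CPM over the 14 samples stayed closest to that of Ltbp2 after centring were Col6a3, Col1a2 and Col3a1, out of 16848 compared, with root mean square differences of 0.508, 0.527 and 0.528 where Ltbp2 itself varied by 3.08. Of the exon bases of Ltbp2, 9.34% are shared with the antisense gene D030025P21Rik.

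Ltbp4 (ENSMUSG00000040488, chromosome 7, 27305136 to 27337692, minus strand), the dominant latency protein of healthy LSECs, was lower after CCl4 in every mouse. It was at 619.5, 721.1, 788.9 and 634.6 CPM in healthy LSECs, at 268.3 and 224.7 CPM at day 1, at 168.5, 212.3, 306.8 and 565.6 CPM at day 3 and at 206.9, 284.6, 555.7 and 576.4 CPM at day 7. All 10 CCl4 samples lay below all 4 healthy ones, as in 2.09% of all genes. The log2 fold change was -1.49 ± 0.495 (SE) at day 1, -1.14 ± 0.381 at day 3 and -0.77 ± 0.379 at day 7, and edgeR's adjusted p missed the threshold at each (0.12, 0.0908 and 0.261). The intervals ran from -2.55 to -0.42, from -1.96 to -0.32 and from -1.58 to 0.05.

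Whether Ltbp4 passed depended on the samples and the tool. Without day 3 sample 4, it passed at day 1 (adjusted p = 0.0369) and at day 3 (-1.67, adjusted p = 0.0102), and DESeq2 called it at both days (adjusted p = 0.0205 and 0.0292). The sums of LSEC markers were lower in the CCl4 samples too, with no overlap between the healthy samples and the others, but single markers went both ways. Log2 fold changes of the 12 markers ran from -1.71 to 3.05 at day 1, from -1.38 to 1.25 at day 3 and from -0.95 to 0.56 at day 7. Clec4g alone made up 26.2% of the healthy sum. The part of a change in LSEC content, or in the cells that the CD32 gate kept, in the difference of Ltbp4 was not tested. Between consecutive days Ltbp4 did not pass in edgeR, with log2 fold changes of 0.35 from day 1 to day 3 (interval -0.66 to 1.35) and 0.37 from day 3 to day 7 (-0.44 to 1.19). For the latter, limma voom gave 1.07 and called it (adjusted p = 0.0227).

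**Figure D4:**
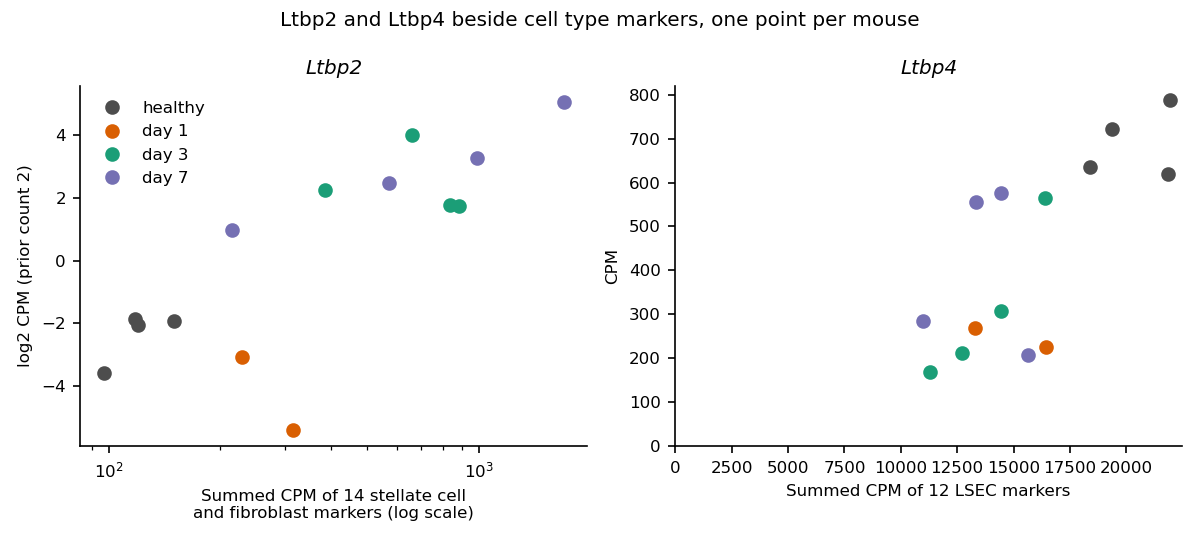
Left, log2 CPM of Ltbp2 against the summed CPM of 14 stellate cell and fibroblast markers on a log axis; right, CPM of Ltbp4 against the summed CPM of 12 LSEC markers, 1 point per mouse. The 4 healthy mice lie lowest in marker sum on the left (96.7 to 150 CPM) and highest on both axes on the right. The 2 day 1 mice have a higher stellate marker sum than healthy mice, with 0.0957 and 0 CPM of Ltbp2. Hgf made up 73.1% of the day 1 marker sum.

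Ltbp1 (ENSMUSG00000001870, chromosome 17, 75005568 to 75392512, plus strand), which binds latent TGF-beta in matrix, was at 0.808, 1.16, 1.14 and 1.77 CPM in healthy LSECs and at 0.287 and 0.319 CPM (29 or fewer counts) at day 1. At day 3 it was at 3.35, 2.62, 1.97 and 4.44 CPM, and at day 7 at 0.748, 12.4, 3.55 and 6.97 CPM. The samples lay below the healthy range at day 1, above it at day 3, and above it in 3 of 4 mice at day 7. The log2 fold changes of -2.01 ± 0.817 (SE) at day 1, 1.34 ± 0.603 at day 3 and 2.27 ± 0.62 at day 7 did not pass in edgeR (adjusted p = 0.21, 0.21 and 0.0627). Without day 7 sample 1, the day 7 value was 2.64 and passed (adjusted p = 0.00722), as it did without day 3 sample 4 (adjusted p = 0.0432). On all samples, DESeq2 and limma voom called Ltbp1 higher at day 7 (2.31 and 2.18, adjusted p = 0.0033 and 0.0107). Day 3 exceeded day 1 by 3.34 ± 0.878 (adjusted p = 0.0643, edgeR), and DESeq2 gave 3.37 and called it (adjusted p = 0.000347).

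Ltbp3 (ENSMUSG00000024940, chromosome 19, 5740904 to 5758532, plus strand), which also binds latent TGF-beta and aids its secretion, had the same shape as Ltbp1. It was at 5.33, 6.69, 8.88 and 5.07 CPM in healthy LSECs and at 3.31 and 3.36 CPM at day 1. It was at 9.93, 9.20, 9.99 and 21.6 CPM at day 3 and at 5.53, 30.1, 20.6 and 21.7 CPM at day 7. Its log2 fold change was -0.96 ± 0.544 (SE) at day 1, 0.96 ± 0.428 at day 3 and 1.59 ± 0.434 at day 7 (adjusted p = 0.402, 0.204 and 0.0638, edgeR). Without day 7 sample 1 the day 7 value was 1.89 and passed (adjusted p = 0.00925), as it did without day 3 sample 4 (adjusted p = 0.0304). On all samples, DESeq2 and limma voom called Ltbp3 higher at day 7 (1.62 and 1.54, adjusted p = 0.00563 and 0.0043). For day 3 against day 1, edgeR gave 1.93 and did not call it, while DESeq2 gave 1.95 and did (adjusted p = 0.00679). Day 7 sample 1, the lowest of its group for Ltbp1, Ltbp2 and Ltbp3, had 215 CPM of stellate cell and fibroblast markers where the other day 7 samples had 573 to 1704 CPM. For Ltbp1 and Ltbp3 all mice of day 7 stood in the order of these sums, while those of day 3 did not. The part of such cells in the levels of Ltbp1 and Ltbp3 was not tested.

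Counted over the 10 members, 6 had no overlap between day 1 and healthy samples, 2 higher (Tgfb3, Tgfbr3) and 4 lower (Tgfbr2, Ltbp1, Ltbp3, Ltbp4), where 37.9% of all genes had none. At day 3, 5 had none, with Tgfb3, Ltbp1, Ltbp2 and Ltbp3 higher and Ltbp4 lower, beside 14.4% of all genes. At day 7, Ltbp2 (higher) and Ltbp4 (lower) remained, beside 20.8% of all genes. Between day 3 and day 1, Ltbp1, Ltbp2 and Ltbp3 had none and were higher at day 3, beside 21.8% of all genes. Between day 7 and day 3, no member was called in edgeR, none had an unadjusted p under 0.05 and none was free of overlap, where 1.77% of all genes were called and 7.91% did not overlap.

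Beyond the members, 69 other genes of the pathway were followed in 5 lists by role. Of these, 10 rose and 3 fell at day 1 (13 called), 18 rose and 3 fell at day 3 (21 called), and 15 rose and none fell at day 7, where 4.06%, 7.19% and 3.18% of all genes tested were called. The lists were drawn up with earlier results of these samples known, so their counts are a description.

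Of 14 genes that release or process latent TGF-beta, 3 were higher and none lower on each day. Thbs1, thrombospondin 1, which can unfold the latent complex, rose by 4.63 ± 0.617 (SE) on the log2 scale at day 1, 3.35 ± 0.546 at day 3 and 2.84 ± 0.534 at day 7 (adjusted p = 0.000931, 0.00423 and 0.0148, edgeR). Itgb3, the beta chain of an integrin that binds the latency peptide and also a platelet integrin, rose by 5.41 ± 0.373 at day 1, by 2.50 ± 0.31 at day 3 and by 1.83 ± 0.303 at day 7. It was at 339 and 445 CPM at day 1 against 4.92 to 13.6 CPM in healthy LSECs. The 9 platelet markers summed to 286 and 103.7 CPM at day 1 and to 27.3 to 44.8 CPM in healthy samples. Pf4 made up 87% of this sum at day 1 and 76.6% in healthy samples. Log2 fold changes of the 9 markers at day 1 ran from -1.19 to 4.66. The part of platelets in the rises of Itgb3 and Thbs1 was not tested. Monocyte and neutrophil markers summed to 7018 and 3054 CPM at day 1, and their part in the rise of Thbs1 was not tested either. Plau, the urokinase protease, rose by 1.69 ± 0.32 at day 3, and Mmp2, a gelatinase, by 3.79 ± 0.693 at day 7. Mmp2 ran from 4.38 to 70.4 CPM at day 7, where stellate cell and fibroblast markers summed to 215 to 1704 CPM. The part of such cells in the rise of Mmp2 was not tested. Itgb1 rose by 0.84 ± 0.19 at day 1, a call lost without any 1 of 10 of the 14 samples, both day 1 samples among them. The calls of Mmp2 (without healthy sample 1 or 2) and Thbs1 (without healthy sample 1) at day 7 were lost as well, with adjusted p up to 0.0556 and 0.062.

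Of the 8 extracellular anchors and binders, 3 were higher at day 3 and at day 7, none was lower, and none was called at day 1. Fn1, fibronectin, to which latent complexes are tethered, rose by 2.97 ± 0.608 (SE) at day 3 and by 4.62 ± 0.656 at day 7 (adjusted p = 0.0119 and 0.00481, edgeR). Fbn1, fibrillin 1, which holds LTBPs in microfibrils, rose by 2.35 ± 0.485 at day 3 and by 2.62 ± 0.49 at day 7. Dcn, decorin, a proteoglycan that binds TGF-beta, rose by 2.07 ± 0.583 and 2.57 ± 0.594. At day 7, Dcn ran from 169 to 1583 CPM and Fbn1 from 11.3 to 76.8 CPM. Stellate cell and fibroblast markers then summed to 215 to 1704 CPM, and the part of such cells in the rises of this list was not tested. The Dcn call was lost without any 1 of 10 samples at day 3 and of 6 at day 7, and that of Fbn1 at day 7 without healthy sample 1 or 3 (adjusted p up to 0.0584).

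Among 11 accessory and related receptors, Cd109, a co-receptor known to restrain TGF-beta signalling, was called higher on each day. It had 4 counts in 1 healthy sample and 0 in the other 3, 67 and 8 counts at day 1, between 32 and 200 counts at day 3 and between 155 and 802 at day 7, and its call at day 1 was lost without day 1 sample 1 and without any of 3 healthy samples. Nrp1, neuropilin 1, a co-receptor for VEGF and TGF-beta, fell by 2.30 ± 0.405 (SE) on the log2 scale at day 1 (adjusted p = 0.0064, edgeR) and by 1.06 ± 0.297 at day 3 (adjusted p = 0.0466). It was at 1478 to 1763 CPM in healthy LSECs and at 237 and 404 CPM at day 1. The call was lost at day 1 without day 1 sample 1 (adjusted p = 0.239) and at day 3 without any 1 of 12 samples. Bambi, a decoy receptor without kinase, fell by 1.25 ± 0.299 at day 1, a call lost without any 1 of 5 samples.

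Of the 16 SMADs and their regulators, 1 was called at day 1, 2 at day 3 and 1 at day 7. Tgif1, a co-repressor of SMADs, rose by 1.34 ± 0.258 (SE) at day 1, 1.28 ± 0.221 at day 3 and 0.93 ± 0.22 at day 7 (adjusted p = 0.00985, 0.00567 and 0.0394, edgeR), and of these calls that at day 1 was lost without day 1 sample 1 (adjusted p = 0.332) and that at day 7 without any 1 of 6 samples. Smad7, the inhibitory SMAD that TGF-beta itself induces, fell by 0.63 ± 0.153 at day 3 (adjusted p = 0.0259), a call lost without any 1 of 4 samples. The other 14 genes, Smad2, Smad3 and Smad4 among them, passed on none of the 3 days.

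Of 20 genes known as TGF-beta targets in various cells, 5 rose and 1 fell at day 1, 10 rose and 1 fell at day 3, and 7 rose at day 7 with none that fell. The day 1 rises were led by Ccn2, the matricellular factor CTGF, at 5.03 ± 0.46 (SE) on the log2 scale (adjusted p = 6.2e-05, edgeR), and Timp1, an inhibitor of metalloproteinases, at 5.01 ± 0.697. Tgm2, a transglutaminase, rose by 2.04 ± 0.271 and Tgfbi, a matrix adhesion protein, by 2.28 ± 0.542, the latter call being lost without any 1 of 5 samples. At day 3 the collagens Col1a1, Col1a2 and Col3a1 rose by 5.90 ± 1.16, 4.88 ± 0.91 and 4.55 ± 0.866, and at day 7 by 7.34 ± 1.24, 6.14 ± 0.966 and 5.70 ± 0.915. Timp1 rose by 4.24 ± 0.635 at day 3 and by 4.60 ± 0.645 at day 7. Bhlhe40, a transcription factor, fell by 1.24 ± 0.258 at day 1, a call lost without either day 1 sample, and by 1.40 ± 0.203 at day 3. The sums of stellate cell and fibroblast markers given above were higher too at day 3 and day 7. At day 1 the sum was above healthy samples through Hgf, which made up 73.1% of it. The median log2 fold change of these 14 markers at day 1 was -0.75. The mean of Col1a1 at day 1 was 1.74 CPM beside 2.58 CPM in healthy LSECs. At day 3 the most Col1a1 (442.8 CPM) was in sample 4, whose marker sum of 661 CPM was below those of samples 1 and 2. The part of such cells in these rises was not tested. Monocyte and neutrophil markers summed to 7018 and 3054 CPM at day 1, and their part in the rise of Tgfbi was not tested.

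**Figure D5:**
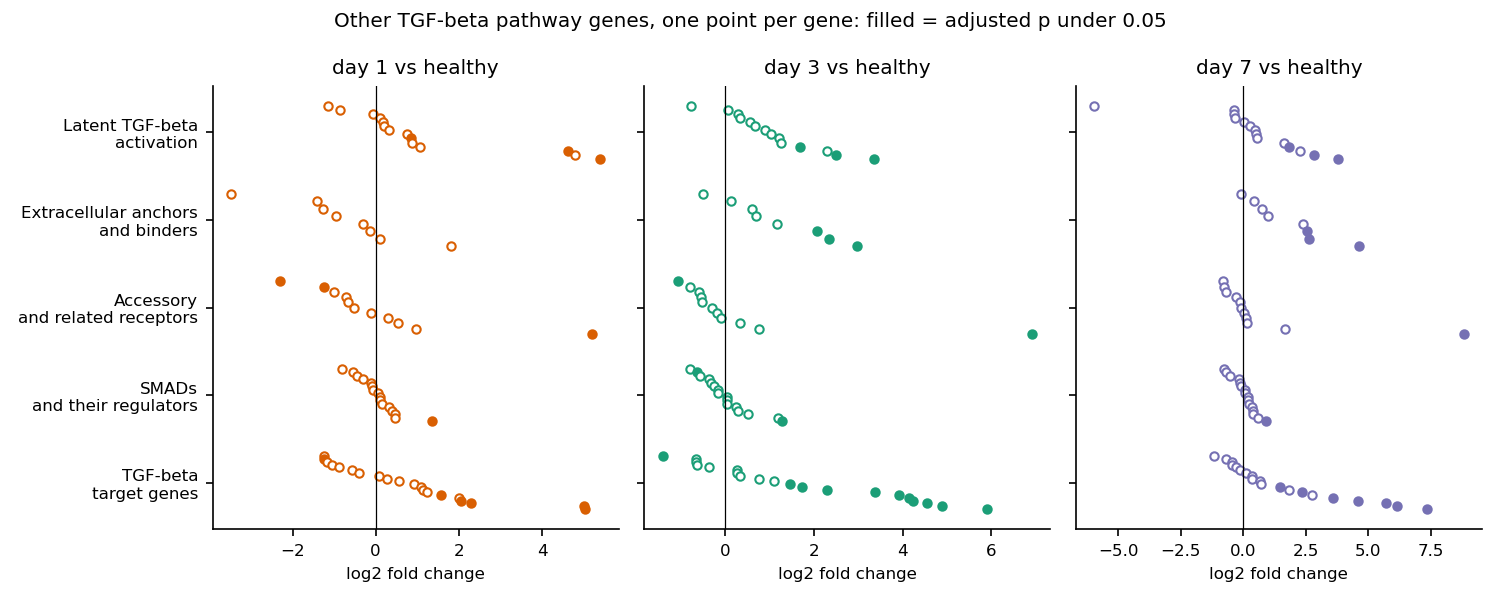
Log2 fold change against healthy LSECs of 69 pathway genes in 5 lists at day 1, day 3 and day 7, 1 point per gene, filled where the adjusted p was under 0.05. Filled points number 13, 21 and 15 from left to right, and most lie to the right of 0; each panel has its own axis range.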

How the data were processed

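RNA of sorted LSECs from 14 mice was sequenced, prepared with the SMART-Seq v4 kit, which does not mark strand. Reads were trimmed by the authors (FastQC, AfterQC), aligned to GRCm38.p6 with STAR and passed to StringTie, and the deposited values are whole-number counts per gene with no normalization. The annotation release and how StringTie output became whole numbers are not given in the sources used here. Names and exon lengths came from GENCODE vM21, which held 54495 of 54524 genes; 9902 genes were at 0 in all samples, and 0 sample columns were left unused.

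Groups came from the sample titles. Genes passed filterByExpr (minimum count 10, minimum total count 15) and were tested with edgeR 4.0.16 (R 4.3.3): TMM scaling, quasi-likelihood test in 1 model of the 4 group means over 14 samples, Benjamini-Hochberg adjustment, threshold 0.05. Standard errors were taken as the size of the log2 fold change over the root of F, CPM uses TMM-scaled library sizes, log2 CPM has a prior count of 2, and fewer than 3 counts were taken as not detected, a floor that covers counting error only. The labels do not say that mice of a group came from separate experiments, so p-values measure the spread between these mice.

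All 10 members were named in every comparison, and, per pathway list and comparison with healthy LSECs, up to 4 called rises and 4 called falls of largest size. For a member called against healthy LSECs, the 3 nearest protein-coding genes were named. The members and lists were chosen with earlier results of these data known. Alternatives were RLE size factors, library size only, limma 3.58.1 (voom, sample weights), DESeq2 1.42.0, no filter, at least 10 counts in every sample, a fit of the 2 groups alone, a block on the sample number, leaving out each sample, and, chosen after seeing the data, leaving out healthy sample 4 and day 3 sample 4 together. The edgeR, DESeq2 and limma steps were tested on simulated data.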

Additional observations from a re-analysis of the deposited data

Results flagged for a closer look

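Among 30 pairs of a member and a group of 4 mice, 4 had a sample far from the others of its group by Dixon's criterion, which chance gives to about 1 in 20 such pairs. Day 3 sample 4 stood apart for Tgfb3 (6.52 CPM), Ltbp2 (16.2 CPM) and Ltbp3 (21.6 CPM), the gap to the nearest mouse being a share of 0.877, 0.895 and 0.936 of the range of the group. This is the sample with counts on the fewest genes, and the part of that in its values was not tested. Healthy sample 2 stood apart for Ltbp2 at 0.0587 CPM (5 counts), with a share of 0.842. Ltbp2 was also singled out because its effect differed between time points, with a log2 difference of 7.16 between day 3 and day 1 (adjusted p = 0.0299, edgeR).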

How the results depend on the processing

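The rise of Ltbp2 at day 3 (log2 fold change 4.35 to 5.29) and day 7 (5.83 to 6.17) passed in all 8 alternatives that could test it; with at least 10 counts required in every sample it is not tested, since day 1 sample 2 has 0. Against day 1, Ltbp2 did not pass at day 3 with limma voom (7.32, adjusted p = 0.0526), only the 2 groups (7.14, adjusted p = 0.0936) or the replicate block (6.61, adjusted p = 0.0977). Members called at day 1, 0 in the analysis reported, numbered 1 with DESeq2 and 2 with limma voom and with only the 2 groups. At day 3 (1 reported) they numbered 2 with DESeq2, 5 with limma voom, 0 with 10 counts in every sample, and 3 without healthy sample 4 and day 3 sample 4. At day 7 (1 reported) they numbered 5, 8 and 2 in the same order, 2 with only the 2 groups and 3 without both samples. For day 3 against day 1 (1 reported) DESeq2 called 3 and only the 2 groups 0, and for day 7 against day 3 (0 reported) limma voom called 3. The cause of these differences was not tested.

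Pathway genes called went from 13 at day 1 to 21 (DESeq2), 27 (limma voom) and 21 (only the 2 groups), from 21 at day 3 to 34 (limma voom), and from 15 at day 7 to 26, 33, 24 and, without both samples, 24. All genes called went from 1080 at day 1 to 2839, 4308 and 2327, from 1915 at day 3 to 3791, 7265 and 1108, and from 846 at day 7 to 2714, 7047, 3156 and, without both samples, 2524. With library size only, 75.1% of the genes called at day 3 were higher in place of 64.2%, and 86.8% in place of 68.8% at day 7. Of the 39 pathway calls named, 24 held in every alternative and without each sample in turn, and 15 were lost without at least 1 sample.

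The labels do not say whether sample numbers pair the mice. Over 18 pairs of the same number the correlation of deviations from the group means lay between -0.232 and 0.096. Over 54 pairs of different numbers it lay between -0.256 and 0.236. With 2 mice at day 1 their deviations mirror each other, so these correlations cannot settle the pairing. With the replicate block, members called were 2 at day 3 (Ltbp2 and Ltbp4) and 0 for day 3 against day 1, and all genes called were 594 at day 1 and 435 at day 7. Under the block the log2 fold change of Tgfb1 was 0.33 at day 1, -0.72 for day 3 against day 1 and 0.13 for day 7 against day 3, that of Tgfbr2 -0.15 and of Ltbp4 -0.21 for day 3 against day 1.

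Other changes of sign were found for small differences. With limma voom the value was -0.18 for Tgfb2 at day 1, and for day 3 against day 1 -0.97 for Tgfb1, 0.06 for Tgfbr1, -0.26 for Tgfbr2 and -0.23 for Ltbp4, and for day 7 against day 3 it was 1.22 for Tgfb1 (adjusted p = 0.027). With library size only it was 0.12 for Tgfb1 at day 3 and 0.03 for Tgfbr3 at day 7. With 10 counts in every sample it was 0.05 for Tgfbr3 at day 7 and 0.01 for Tgfb1 for day 7 against day 3, and without a filter -0.08 for Tgfbr2 for day 3 against day 1. Without both samples, day 3 against day 1 gave -0.59 for Tgfb1, -0.04 for Tgfb3, -0.27 for Tgfbr2 and -0.16 for Ltbp4, and day 7 against day 3 gave 0.72 for Tgfb1.

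Leaving out 1 sample at a time, 0 to 1 members were called at day 1, then 1 to 3 (day 3) and 1 to 5 (day 7), with 0 to 3 for day 3 against day 1 and 0 for day 7 against day 3. Pathway genes called ranged from 5 to 16, 17 to 25 and 9 to 24 at days 1, 3 and 7, and all genes called from 164 to 1845, 946 to 3314 and 193 to 2166. Signs changed for Tgfb2 (-1.49 to 1.14) and Tgfbr1 (-0.01 to 0.58) at day 1, and for Tgfb1 at day 3 (-0.84 to 0.26) and day 7 (-0.28 to 0.14). They changed for day 3 against day 1 in Tgfb1 (-0.59 to 0.50), Tgfb3 (-0.11 to 0.97), Tgfbr1 (-0.44 to 0.15), Tgfbr2 (-0.27 to 0.19) and Ltbp4 (-0.16 to 0.53). For day 7 against day 3 they changed in Tgfb1 (-0.34 to 0.72), Tgfbr2 (-0.04 to 0.39), Tgfbr3 (-0.01 to 0.45) and Ltbp2 (-0.26 to 1.81). With 2 mice at day 1, leaving out either leaves 1, which is assumed to vary like the other groups. Depth limits Ltbp2 in healthy and day 1 samples, with 24 or fewer counts each.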
